A study of Mus musculus with 60 samples.

Results

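Among 32 single DiD+ breast cancer cells from mouse bone, the 10 with the least RNA relative to added spike-ins (low-RNA cells) were compared with the 10 with the most (high-RNA cells). The 20 cells were chosen by the share of their counts that fell on ERCC spike-ins, which are synthetic RNAs added to each well in the same dilution, so that a cell with less RNA of its own gives them a larger share. They are 20 of the 60 cells of the series. The remaining 12 DiD+ cells are called the middle cells. The 28 DiD- cells were ranked by the same share for comparison.

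The cells belong to PyMT-Bo1, a breast cancer line derived from mice of C57BL6 background, which here carried luciferase (Luc2), eGFP and mApple transgenes and the surface marker Thy1.1, and it was loaded with DiD, a membrane dye that dilutes as cells divide. The cells were injected into the left ventricle of wild-type C57BL6 female mice aged 8 to 10 weeks. After 11 days single cells were sorted from the pooled femurs and tibias of 5 mice into DiD+ (label-retaining) and DiD- cells. The study calls the DiD+ cells dormant and the DiD- cells proliferative. All groups share the line, the dye loading, the hosts, the sort day and the transgenes. The labels do not say which mouse a cell came from, so each group is 1 sample of 1 cell line, no test between groups was possible, and every difference given here is a description without a replicate check.

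The RNA content of a cell normally follows its size and its place in the division cycle. A cell that leaves G0 makes ribosomes and grows through G1, doubles its DNA in S phase and reaches its largest size in G2 and mitosis, when transcripts for the spindle, the kinetochores and the mitotic kinases peak. Arrested cells are known for low levels of these transcripts.

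By construction the spike-in share separated the groups. It ranged from 2.71% to 6.53% in low-RNA cells with a median of 3.01%, and from 0.559% to 1.41% in high-RNA cells with a median of 1.28%. At the limits, the last low-RNA cell (cell 80) had 2.714% and the first cell left out (cell 37) 2.711%, while the last high-RNA cell (cell 17) had 1.41% and the first cell left out (cell 82) 1.75%. All 10 low-RNA cells lay above the highest DiD- cell (2.53%), whereas the high-RNA cells overlapped the DiD- cells, whose median was 1.51%. The share can be raised by less RNA in the cell, by loss of RNA before capture or by more spike-in in the well, and these cannot be told apart here. The label "RNA content" is therefore used for this share alone.

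Counts on mouse genes did not separate the groups, with 3687337 to 5588437 per low-RNA cell and 3506163 to 5618560 per high-RNA cell. Both groups held cells from each block of cell numbers in the labels, 6 and 4 low-RNA cells and 5 and 5 high-RNA cells from numbers 17 to 46 and 63 to 92. Luc2 was counted in 9 of 10 low-RNA and 10 of 10 high-RNA cells, and keratin 8 (Krt8), a filament protein of simple epithelium, in all 20. Of the other 8 epithelial markers only keratin 18 (Krt18) reached 10 CPM in a group sum, where CPM are the counts on a gene scaled to the same total of mouse counts for every cell or group. Transcripts of host blood cells were present in 5 of the 20 wells although CD45+ cells had been gated out. Cells 19, 21, 88 and 30 of the low-RNA group and cell 24 of the high-RNA group had at least 11 of 13 macrophage or monocyte markers at 10 counts or more, and cells 19 and 30 had 5 and 7 of 7 erythroid markers. Cell 30 had no count of Luc2, eGFP or mApple but 2018 CPM of Krt8, and its 50 most abundant genes took 31% of its mouse counts. Over the macrophage list the median log2 ratio of low-RNA over high-RNA cells was 1.06, and 0.10 without these 5 wells, and over the erythroid list 10.82 and 0.00. No marker of T or NK cells, neutrophils, endothelium or osteoblasts reached 10 CPM in a group, and 1 of 6 B cell, 1 of 5 platelet, 2 of 6 osteoclast and 4 of 11 stromal markers did. Main values are also given without the 5 wells, and the part of host RNA in the others was not tested.

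Low-RNA cells had fewer detected genes than high-RNA cells. A median of 7747.5 mouse genes (6024 to 8299) had at least 1 count in low-RNA cells, against 9339.5 (8106 to 10456) in high-RNA cells. In 8 of the 10 high-RNA cells more genes were detected than in any low-RNA cell, and the ranges overlapped only through high-RNA cells 17 and 18. The difference was as large at equal read depth, but equal depth does not even out the RNA content by which the cells were chosen. A cell with less captured RNA can show fewer genes for that reason alone, and its part was not tested. After each cell was thinned to 2200000 counts the medians were 7438.5 and 9052, a difference (low-RNA minus high-RNA) of -1613.5 genes compared with -1592 before thinning. The 12 middle cells had a thinned median of 8065, between the medians of the groups. Over the 32 DiD+ cells, which share 1 line and 1 pool of mice, Spearman's rho between spike-in share and thinned gene number was -0.74, and over the 28 DiD- cells it was -0.60.

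**Figure D1:**
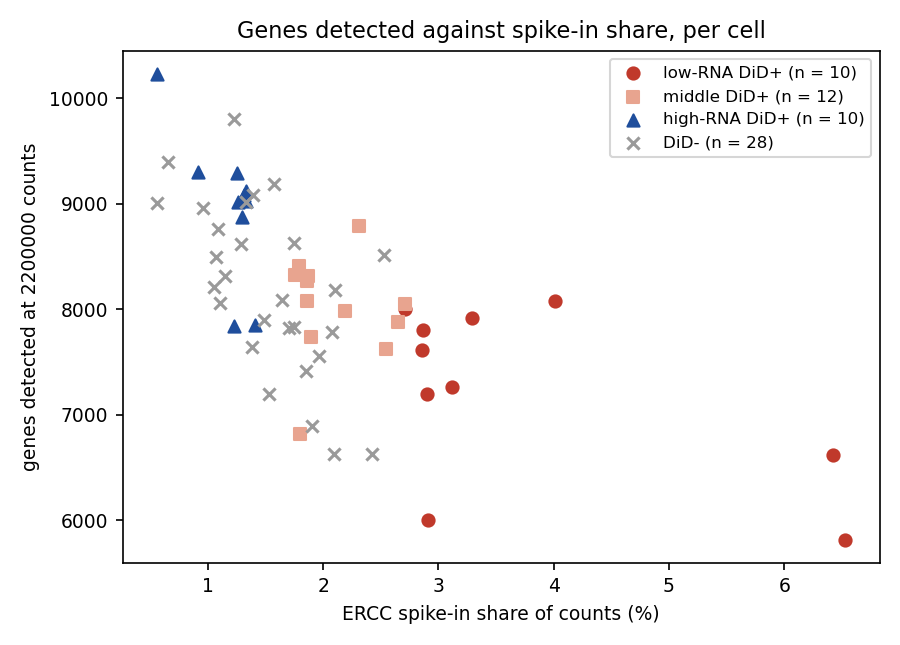
Genes detected per cell after thinning to 2200000 counts (y axis) against the ERCC spike-in share of all counts in percent (x axis, the measure used to choose the groups) for 60 cells. Low-RNA cells lie between 5815 and 8076 genes and high-RNA cells between 7840 and 10231, and the middle DiD+ cells, between 6820 and 8792, and the DiD- cells, between 6622 and 9801, overlap both.

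Single genes were detected in fewer of the low-RNA cells. Of the 9034 genes with at least 10 CPM in either group, which are the genes called tested although no statistical test was made, 4198 had a count in all 10 high-RNA cells but only 2157 in all 10 low-RNA cells. More high-RNA than low-RNA cells detected the gene for 5545 genes, and fewer for 777. The most abundant transcripts filled more of the library in low-RNA cells, in which the top 50 genes of a cell took 16.6% to 31% of the mouse counts (median 19.9%) compared with 14.3% to 18.4% (median 16.4%) in high-RNA cells. All 10 low-RNA cells exceeded the high-RNA median of this share and 6 exceeded every high-RNA cell. Middle cells had a median of 19.5% and DiD- cells 16.3%.

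Expression was next compared gene by gene. For each group, the summed counts of a gene in its 10 cells were expressed as CPM of all mouse gene counts, so that the ratios describe the composition of the RNA and not its amount, and a log2 ratio of low-RNA over high-RNA was taken after adding 1 CPM. Of the 9034 genes, 924 (10.2%) had a log2 ratio of at least 1 and 1418 (15.7%) of at most -1. The median was -0.09, with quartiles of -0.65 and 0.42. When the same 9034 genes were compared between the 10 DiD- cells with the highest and the 10 with the lowest share, 563 (6.23%) were at or above 1 and 736 (8.15%) at or below -1. These DiD- shares rest on a filter set in DiD+ cells. The DiD- split also covers a different range, since all 10 low-RNA cells had a higher spike-in share than any DiD- cell. A ratio nearer 0 there therefore does not mark a difference as particular to DiD+ cells. Across genes, which are not independent replicates, the ratios in DiD+ and DiD- cells had a Spearman's rho of 0.02.

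Single cells of the 2 groups overlapped for every gene, and the number of genes in which all 10 low-RNA cells lay on one side of all 10 high-RNA cells was 0 in each direction. The middle cells lay between the groups for 939 of the 1418 genes lower in low-RNA cells and for 553 of the 924 genes higher in them. The balance of the calls depended on the scaling. The authors' BASiCS normalized values gave 707 higher and 1771 lower genes, and scaling to spike-ins, whose overall shift of -1.68 in log2 follows from how the cells were chosen, gave 78 higher and 7287 lower.

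Among the functional lists, genes of the G2 and M phases had the lowest median. All 57 list members reached 10 CPM in a group. Of these, 45 had a log2 ratio at or below -1, against 15.7% of all genes tested, and 0 at or above 1, with a median of -2.10 against -0.09 for all genes. In the DiD- split the median of the same genes was -0.24. The single member with a ratio above 0 was Psrc1 (0.01), a spindle protein. Without the 5 wells with host markers the median was -1.78.

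By role, the 15 kinases and cyclins had a median of -2.55. Aurka, the Aurora A kinase of the spindle poles, had 0 to 39.5 CPM in low-RNA cells with a median of 0 and 0 to 456 CPM in high-RNA cells with a median of 58.1. It was counted in 1 low-RNA cell (cell 80) and 7 high-RNA cells, and its summed levels of 3.22 CPM (exact 95% Poisson interval 2.72 to 3.78) and 127 CPM (124 to 131) gave a log2 ratio of -4.93, which lay between -7.00 (without cell 80) and -4.54 (without cell 67) when single cells were left out. Poisson intervals cover counting error only, since the reads carry no molecular identifiers, and say nothing of the spread between cells. Ccnb1, cyclin B1, which activates Cdk1 for entry into mitosis, reached at most 271 CPM in low-RNA and 3152 CPM in high-RNA cells, with medians of 0 and 129 and a log2 ratio of -3.31. Plk1 (-3.44), Aurkb (-3.12) and Cdc20 (-2.55), which drive spindle assembly and exit from mitosis, were also low. Cks1b, a small subunit of cyclin-dependent kinases, differed least in this role, at -0.38.

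The 30 spindle and kinetochore genes had a median of -2.39, and the extreme value was that of Ndc80 (-6.90), which links kinetochores to microtubules. Ndc80 had no count in any low-RNA cell and 0 to 292 CPM in high-RNA cells (median 86.5), of which 7 had it. Its 118 CPM in the high-RNA sum were at least 1799-fold higher than the level that 3 counts over all low-RNA cells would give. Such a fold covers counting only, since a transcript missed at capture also leaves no count. Kif11, the motor that pushes spindle poles apart, was counted in 2 low-RNA cells at up to 11.5 CPM and in 6 high-RNA cells at up to 547 CPM, and its log2 ratio was -6.36. The 12 genes of chromosome structure had a median of -1.32, from Top2a (-4.55), the topoisomerase that untangles sister chromatids, to Ctcf (-0.12), which organizes chromatin loops throughout the cycle. Top2a had 0 to 61.5 CPM in low-RNA cells (median 0.116) and 0 to 957 CPM in high-RNA cells (median 117). The groups overlapped for Ndc80, Kif11 and Top2a, of which 2 to 4 high-RNA cells had no count, and for Top2a high-RNA cell 17 (48.1 CPM) also lay below low-RNA cell 36 (61.5 CPM).

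Many G2/M genes carry a cell cycle homology region (CHR), the letters TTTGAA, near their start. Among the 50 of 57 G2/M genes with a RefSeq promoter in the table used, 20 (40%) had these letters on either strand in the 250 bases before a start, compared with 4934 of 27025 genes overall (18.3%), 6 of 33 S phase genes (18.2%) and 3 of 20 interferon genes (15%). A match is a description of the letters and not a binding site. The 130 bases that end just before the start are shown 5′ to 3′ for 4 genes with large ratios and a match, with the matching letters in capitals (RefSeq, GRCm38.p6).
Kif11, chr19:37376252-37376381, plus strand: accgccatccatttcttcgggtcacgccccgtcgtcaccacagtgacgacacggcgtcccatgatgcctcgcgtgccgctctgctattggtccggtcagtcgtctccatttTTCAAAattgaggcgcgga
Top2a, chr11:99024190-99024319, minus strand: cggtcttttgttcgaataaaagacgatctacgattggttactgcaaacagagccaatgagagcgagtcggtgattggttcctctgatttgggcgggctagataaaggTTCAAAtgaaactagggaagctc
E2f8, chr7:48881597-48881726, minus strand: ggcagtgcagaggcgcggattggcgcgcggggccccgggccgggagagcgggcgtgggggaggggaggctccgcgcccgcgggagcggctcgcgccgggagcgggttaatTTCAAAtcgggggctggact
Ect2, chr3:27153879-27154008, minus strand: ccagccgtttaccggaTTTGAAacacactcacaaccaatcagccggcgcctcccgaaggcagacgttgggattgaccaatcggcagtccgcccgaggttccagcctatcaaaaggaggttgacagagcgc
In Kif11, Top2a and E2f8 the match began 19, 23 and 20 bases before the start, and in Ect2 114 bases before it. E2f8 belongs to the S phase list and is described with it.

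Summed over its 57 members, the G2/M list took 1438 to 10411 CPM in low-RNA cells (median 2909) and 1919 to 32380 CPM in high-RNA cells (median 9177). 5 high-RNA cells exceeded every low-RNA cell, and 3 low-RNA cells lay below every high-RNA cell. The low-RNA group was not uniform. Cells 35 (10411 CPM), 80 (7313 CPM), 88 (6108 CPM) and 38 (5862 CPM) had the largest sums, and cells 19 and 68 the smallest. Counted by members at 10 counts or more, 4 high-RNA cells had all 57, whereas no low-RNA cell had more than 42.

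The middle cells did not lie between the groups in this respect. Their median G2/M sum was 2066 CPM, below that of the low-RNA cells, and their range of 1302 to 36370 CPM included the highest cell of all. Above the median of the DiD- cells (7696 CPM) were 5 of 10 high-RNA cells, 2 of 12 middle cells and 1 of 10 low-RNA cells. Above the highest DiD- cell (27893 CPM) were 2 high-RNA cells, 1 middle cell and 0 low-RNA cells. Over the 32 DiD+ cells rho between spike-in share and the G2/M sum was -0.42, and over the 28 DiD- cells -0.20.

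**Figure D2:**
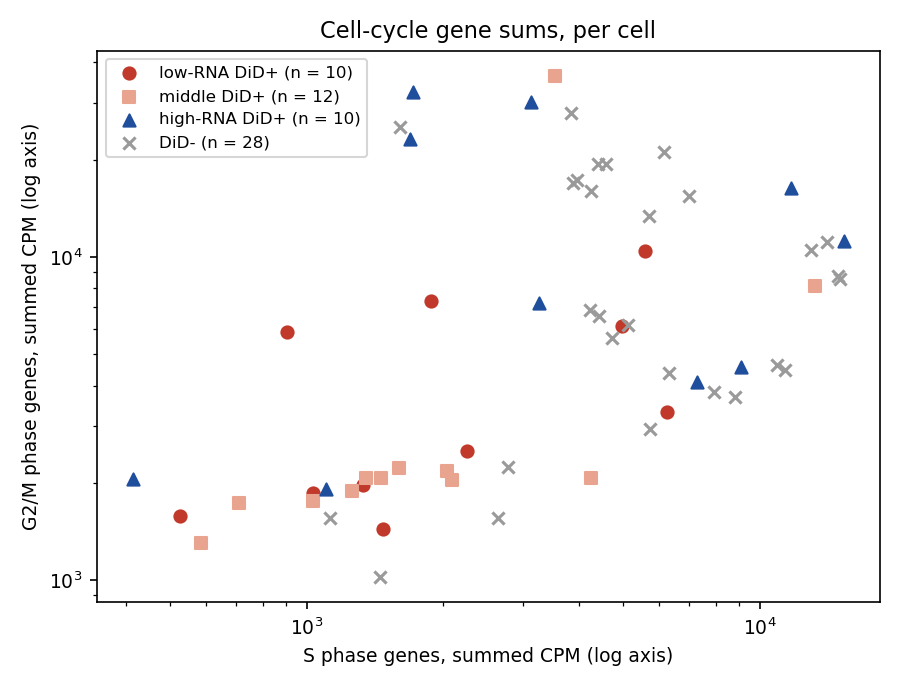
Summed CPM of 57 G2/M genes (y axis, log scale) against that of 45 S phase genes (x axis, log scale), 1 point per cell. The 3 cells with the highest G2/M sums among high-RNA cells (23180 to 32380 CPM) have S phase sums of 1687 to 3134 CPM, while most middle cells sit at the lower left with the low-RNA cells that have few transcripts of either list.

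S phase genes had the next lowest median. Of 45 members 42 were tested. Among these, 26 had a log2 ratio at or below -1, against 15.7% of all genes tested, and 0 at or above 1, against 10.2%. The list median was -1.07, compared with -0.02 in the DiD- split and -0.997 without the wells with host markers. The 10 licensing genes, which load and activate the replicative helicase, had a median of -1.02. In this set Mcm2 was at -2.30 and Mcm6 at -1.42, with 0 to 205 CPM and 37 to 862 CPM in low-RNA cells and 0 to 1019 CPM and 0 to 1841 CPM in high-RNA cells. Gins2, another subunit of the helicase complex, was at 0.66. The 21 genes of DNA synthesis had a median of -1.09. Rrm2, the ribonucleotide reductase subunit made for S phase, had a median of 0.71 CPM in low-RNA and 350 CPM in high-RNA cells and a log2 ratio of -2.78, whereas the polymerase clamp Pcna (-0.13) and the thymidylate synthase Tyms (0.10) had nearly equal levels in the group sums. The repressor E2f8 (-4.18) and cyclin E2, Ccne2 (-3.07), were the lowest regulators, and E2f8 was counted in 1 low-RNA and 7 high-RNA cells.

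The summed S phase level overlapped widely, with 526 to 6248 CPM in low-RNA cells (median 1679) and 413 to 15370 CPM in high-RNA cells (median 3198). Cells 36, 35 and 88 held the 3 highest low-RNA sums and lay above the DiD- median of 4921 CPM, as 4 high-RNA cells and 1 middle cell did. The S phase median was -0.76 without high-RNA cell 25 and -1.37 without low-RNA cell 36. Of the S phase genes with a RefSeq promoter, 9 of 33 (27.3%) held TTTGGCGC or TTTCCCGC, forms of the E2F site, on either strand, compared with 1.51% of all genes.

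The 12 G1 regulators tested had a median of -0.55. Of the 12, 4 were at or below -1, against 15.7% of all genes tested, and 0 at or above 1, against 10.2%. The 6 cyclins and kinases among them had a median of -0.30, with 1 at or below -1. The 6 inhibitors and pocket proteins had a median of -0.91, with 3 at or below -1. Cyclin D1 (Ccnd1), which starts the G1 program in response to growth signals, was present in all 20 cells, at 131 CPM and 170 CPM in the sums (log2 ratio -0.37). Among inhibitors, the p53 target p21 (Cdkn1a) was present in all 20 cells at 166 to 2501 CPM in low-RNA cells (median 493) and 43.1 to 1065 CPM in high-RNA cells (median 314), a log2 ratio of 0.74, or 0.27 without low-RNA cell 36. The INK4 inhibitors Cdkn2d (-1.92) and Cdkn2c (-1.30), which block the kinases partnered with D cyclins, had lower sums in low-RNA cells, Cdkn2c at -0.81 without high-RNA cell 25.

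Besides Ndc80, Kif11 and Ect2, the 12 lowest genes by the naming rule held 9 from outside the G2/M list, of which 8 are described. Kif4 (-6.63), a motor on chromosome arms, and Kif18b (-5.33), which shortens microtubules, were each counted in 1 low-RNA cell, against 7 high-RNA cells. Cdca5 (-5.90), which holds sister chromatids together, Parpbp (-5.93), a regulator of recombination, and Btbd10 (-5.58) had no count in any low-RNA cell. Their sums of 58.9, 60.1 and 46.9 CPM in high-RNA cells were at least 896-fold, 915-fold and 714-fold higher than 3 counts over the low-RNA group would give. Sgo2a (-5.34), a protector of centromeric cohesion, Cep120 (-5.08), a centriole protein, and Focad (-5.05) were counted in 1, 3 and 1 low-RNA cells. In the DiD- split the 12 ranged from -1.42 to 0.49. Parpbp (-1.42) and Focad (-1.10) were at or below -1 there, against 8.15% of all genes tested.

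Among the functional lists, interferon response genes had the highest median, and 1 cell held over 50% of their low-RNA counts. Of 29 members 26 were tested, 20 had a log2 ratio of at least 1, against 10.2% of all genes tested, and 1 of at most -1, and the median was 1.76, against 0.05 in the DiD- split. Summed over the list, low-RNA cells had 294 to 14494 CPM (median 764) and high-RNA cells 190 to 1160 CPM (median 523). Cell 68 held 53% of the low-RNA counts and cell 21, a well with macrophage markers, 21.5%. With the 10 CPM minimum applied anew each time, the list median was 0.81 without cell 68, 2.31 without the 5 wells with host markers and 0.61 without both. Cells 68, 21 and 80 (1571 CPM) exceeded every high-RNA cell, and the other 7 lay within their range.

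**Figure D3:**
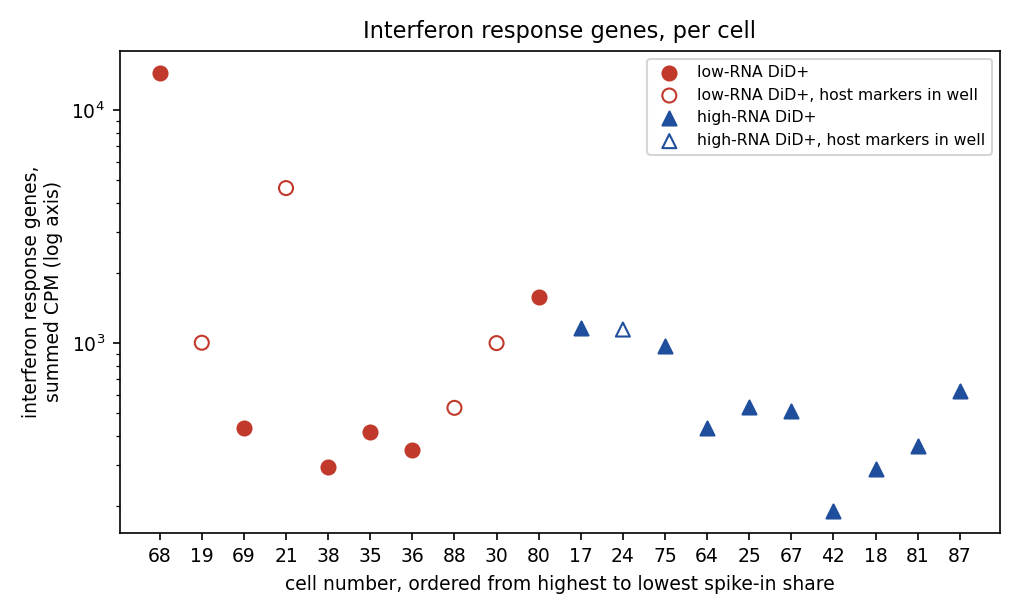
Summed CPM of 29 interferon response genes (y axis, log scale) in the 20 cells, ordered by spike-in share from high to low (x axis, cell numbers), with open symbols for the 5 wells with host blood markers. Cell 68, which has no such marker set and the highest share, stands at 14494 CPM, and the other cells lie between 190 and 4631 CPM.

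Isg15, a ubiquitin-like protein joined to other proteins after interferon exposure, had 0 to 631 CPM in low-RNA cells (median 15.8) and 0 to 32.3 CPM in high-RNA cells (median 2.04). It was counted in 8 and 6 cells, the sums were 129 CPM (126 to 133) and 6.36 CPM (5.66 to 7.13), and the log2 ratio was 4.15. Ifi27l2a, an interferon-induced mitochondrial protein, was at 4.0 and was counted in 7 low-RNA and 2 high-RNA cells. Cell 68 held 51.0% of its low-RNA counts, and without that cell the ratio was 3.11. Ubd, outside the list, which encodes the ubiquitin-like modifier FAT10, had 0 to 206 CPM in low-RNA cells, 6 of which had it, and no count in high-RNA cells, so its low-RNA sum was at least 512-fold higher than 3 counts there would give. Rsad2 (viperin) also had no count in high-RNA cells, but 91.2% of its low-RNA counts were in cell 30. Its log2 ratio was 4.99, 2.02 without cell 30 and 0.00 without the 5 wells. Oasl1 (-3.59) went the other way and was counted in 1 high-RNA cell (cell 24, a well with host markers).

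The interferon-stimulated response element has a core of GAAA repeated after any 2 bases, searched on both strands, and 8 of the 20 list members with a RefSeq promoter (40%) held it, compared with 936 of 27025 genes (3.46%). The 130 bases before the start are shown for 3 of them because they span the list's behaviour, from the gene that passed the naming rule to one that rested on a well with host markers. Capitals mark the matching letters, which in Isg15 are 3 overlapping matches.
Isg15, chr4:156200819-156200948, minus strand: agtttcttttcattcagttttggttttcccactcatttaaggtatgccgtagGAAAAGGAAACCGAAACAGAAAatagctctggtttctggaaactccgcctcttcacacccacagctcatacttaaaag
Ifit3, chr19:34583399-34583528, plus strand: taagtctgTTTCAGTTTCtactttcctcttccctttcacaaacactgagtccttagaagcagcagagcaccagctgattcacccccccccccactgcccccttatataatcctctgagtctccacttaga
Rsad2, chr12:26456453-26456582, minus strand: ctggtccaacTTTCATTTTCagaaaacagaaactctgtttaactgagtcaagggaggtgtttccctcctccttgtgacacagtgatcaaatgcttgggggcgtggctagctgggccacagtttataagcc
The match nearest the start began 66 bases before it in Isg15, 122 in Ifit3 (log2 ratio 3.40, and 2.16 without cell 68) and 120 in Rsad2.

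The other genes named as highest by the rule came from several functions. AW112010, a long noncoding RNA of immune cells, was at 157 CPM against 1.94 CPM (5.75), but at 3.21 without the wells with host markers and at -4.47 in the DiD- split. Rgs2, which shortens G protein signals, was at 93.6 CPM against 10.4 CPM (3.05), counted in 9 low-RNA and 4 high-RNA cells, with 0.97 in the DiD- split. Tnfaip3, the NF-kB inhibitor A20, was at 77.8 CPM against 10.8 CPM (2.74), counted in 8 and 4 cells. Without the wells with host markers Rgs2 was at 3.13 and Tnfaip3 at 4.35, and Tnfaip3 was at 4.11 without high-RNA cell 24 alone. Snhg5 (2.72), a host transcript of small nucleolar RNAs, was counted in 9 and 6 cells. Ang (2.96), a secreted ribonuclease that cleaves tRNA, was counted in 7 and 4 cells, while Rad54l2 (3.30), Antxr1 (2.92), a collagen-binding receptor, and Phyhd1 (2.87) were counted in 6 or 7 low-RNA cells at sums of 13.2 to 30 CPM. Phtf1os (2.86) lies antisense to another gene and, since the counts are not stated to use strand, may hold reads of that gene. Its ratio was 0.93 without the wells with host markers.

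Transcripts of the ribosome and the mitochondria took a larger share of the RNA in low-RNA cells. Of 82 cytosolic ribosomal protein genes tested, 81 had a ratio above 0 but only 4 of at least 1, compared with 10.2% of all genes tested, and the median was 0.53, against 0.04 in the DiD- split. Summed, they took 37811 to 96678 CPM in low-RNA cells (median 43680) and 22420 to 60816 CPM in high-RNA cells (median 34557). All 10 low-RNA cells lay above the high-RNA median, while 3 high-RNA cells lay above the low-RNA median, so the groups overlapped. Without low-RNA cell 35, the highest, the list median was 0.28, and without the wells with host markers it was 0.59. The genes ranged from Rps2 (-0.13) to Rpl22l1 (1.40), a paralog of Rpl22 that can replace it in ribosomes. Nuclear genes of the respiratory chain had a median of 0.44, with 64 of 75 above 0 and 11 below.

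The mitochondrial genome took 1.14% to 3.91% of the counts in low-RNA cells (median 1.89%) and 0.475% to 1.98% in high-RNA cells (median 1.05%). All 10 low-RNA cells lay above the high-RNA median and 4 above every high-RNA cell. All 12 protein genes tested had ratios above 0, and 5 had at least 1, against 10.2% of all genes tested. The 12 ranged from mt-Nd1 (0.58) to mt-Co3 (1.69), with a median of 0.92. The DiD- split had a median of 0.36 for the same genes, and the DiD+ median without the wells with host markers was 0.78. A high mitochondrial share also marks damaged cells, and whether damage had a part in it was not tested.

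The ribosomal protein and nuclear respiratory chain lists had short median exon lengths, and the ratio followed exon length across all genes. Genes with an exon length in GENCODE M21 (9025 of 9034) were placed in quartiles by the total length of their exons. The median log2 ratio was 0.19 in the shortest quartile (69 to 2771 bases) and -0.15, -0.21 and -0.27 in the next 3, the longest being 6821 bases or more. Among the 2189 genes at 100 CPM or more in DiD- cells, a limit that does not depend on the 2 groups, the medians of the 4 quartiles were 0.23, -0.11, -0.28 and -0.40, and the share of genes at or below -1 was 2.38%, 5.67%, 11.4% and 16.6%. In the DiD- split the 4 medians of these genes lay between 0.01 and 0.02. Ribosomal protein genes had a median exon length of 1775.5 bases and respiratory chain genes of 1756 bases, compared with 4860 bases for G2/M and 4633.5 bases for S phase genes. The part of length in the ratios of these lists was not tested.

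**Figure D4:**
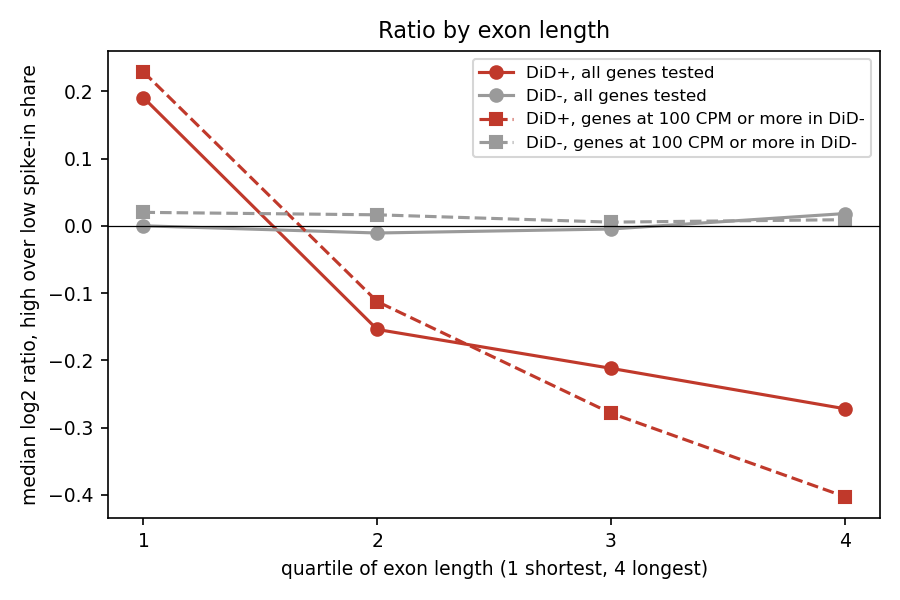
Median log2 ratio (y axis) of the genes in each quartile of exon length (x axis, 1 shortest and 4 longest) for the DiD+ comparison and the DiD- split, over all genes tested and over genes at 100 CPM or more in DiD- cells. The DiD+ medians go from 0.19 and 0.23 in the shortest quartile to -0.27 and -0.40 in the longest, while all 8 DiD- medians lie near 0.

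Genes also differed by abundance. Of the 1074 genes under 10 CPM in DiD- cells, 456 (42.5%) had a ratio of at least 1, which the filter favours because such a gene had to reach 10 CPM in one of the groups. Among the 2189 genes at 100 CPM or more in DiD- cells only 31 (1.42%) had a ratio of at least 1 and 197 (9.0%) of at most -1. Of the 2040 genes counted in all 20 cells, 56 were at or above 1, against 10.2% of all genes tested. At or below -1 were 39 of them, against 15.7% of all genes tested. The median of the 2040 was 0.09, against -0.09 for all genes tested.

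Genes that the study linked to dormancy were chosen on these cells as higher in DiD+ than in DiD- cells, so they are no independent evidence of a direction. Within DiD+ cells 7 of the 11 tested had a ratio of at least 1, against 10.2% of all genes tested, and 1 of at most -1, against 15.7%. The median of the 11 was 1.54, compared with 1.10 in the DiD- split. Postn, periostin of the bone matrix, was at 7.73, but 95.8% of its low-RNA counts were in cell 68, without which it was at 3.41. The receptor Pdgfrb was at -1.09, or at 0.24 without high-RNA cell 67, and the growth arrest protein Gas6 at -0.70, or at 3.19 without high-RNA cell 24. The list median was -0.29 among the cells numbered 17 to 46 and 3.99 among those numbered 63 to 92, so the blocks differed in direction, and 0.95 without cell 68. Bcat1, a branched-chain aminotransferase from the study's list of proliferative genes, was at -1.61, with counts in 3 low-RNA and 7 high-RNA cells, and at -0.69 without high-RNA cell 18.

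The p53 targets had a median of 0.40, and of 0.85 without the wells with host markers. Of the 16 tested, 15 were above 0, and 4 were at least 1, against 10.2% of all genes tested. Mdm2, which marks p53 for degradation, was at 1.14, with 130 to 3474 CPM in low-RNA cells (median 204) and 62.1 to 882 CPM in high-RNA cells (median 163). Cell 36 held 66.2% of the low-RNA counts, and without it the ratio was -0.25. Gdf15, a stress cytokine, had the list's highest ratio (7.94) from 4 low-RNA cells and no high-RNA cell. Without the wells with host markers its ratio was 1.23.

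Among genes of RNA turnover, 1 of the processes on which messenger RNA content depends, the 28 tested had a median of -0.24. Of these, 5 were at or below -1, a share close to the 15.7% of all genes tested. Among the 5 were the deadenylase Pan2 (-2.64) and the deadenylase scaffold Cnot1 (-1.02, or -0.80 without high-RNA cell 25). The summed level of the list was 1156 to 1951 CPM in low-RNA cells (median 1574) and 1523 to 2330 CPM in high-RNA cells (median 1874). Of the 12 RNA polymerase II subunits, 7 were above 0 and the median was 0.50, but 0.10 without cell 35. The largest subunit Polr2a was at -0.31.

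Cholesterol synthesis genes had a median of -0.62, with 5 of 17 at or below -1, against 15.7% of all genes tested. The list median was -0.24 without high-RNA cell 67 and -1.0 without the wells with host markers. Mvd, an enzyme of the mevalonate pathway, had no count in low-RNA cells and 0 to 42.4 CPM in high-RNA cells, a level at least 308-fold higher than 3 low-RNA counts would give. The next lowest were Lss (-3.46) and Dhcr7 (-1.78), also enzymes of the pathway. Heat shock chaperones had a median of -0.50, but 0.10 without high-RNA cell 81.

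The next 6 lists had medians within 0.2 of 0. Lysosome and autophagy genes were at 0.04, proteasome genes at -0.03, endoplasmic reticulum and integrated stress genes at -0.14, translation factors at -0.14, glycolysis genes at -0.18 and ribosome biogenesis genes at -0.19. Immediate early genes were at 0.29, from Myc (-0.68) to Fosb (1.58, or 1.05 without low-RNA cell 19). Nuclear-retained RNAs lay farther from the median of all genes, at a median of 1.24 from 3 of 6 tested, and 0.78 without the wells with host markers, with Malat1 at 0.39 and Neat1, the scaffold of paraspeckles, at 1.33, or at 0.79 without low-RNA cell 21.

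Of the 4 tumor transgenes 3 had lower sums in low-RNA cells, Luc2 at 55.6 CPM against 87.5 CPM (-0.65), mApple at 41.9 CPM against 68.5 CPM (-0.70) and eGFP at 15.8 CPM against 27.4 CPM (-0.75). Krt8 was at 1758 CPM against 2561 CPM (-0.54), and Krt18 at 673 CPM against 921 CPM (-0.45). Without the wells with host markers Krt8 was at -1.10 and Krt18 at -2.47, and cell 88, one of these wells, held 36.5% of the low-RNA Krt18 counts. Pymt, the oncogene of the line, went the other way, at 17.7 CPM against 3.72 CPM (1.99), but it was counted in only 3 cells of each group and low-RNA cell 88 alone had 160 CPM.

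**Figure D5:**
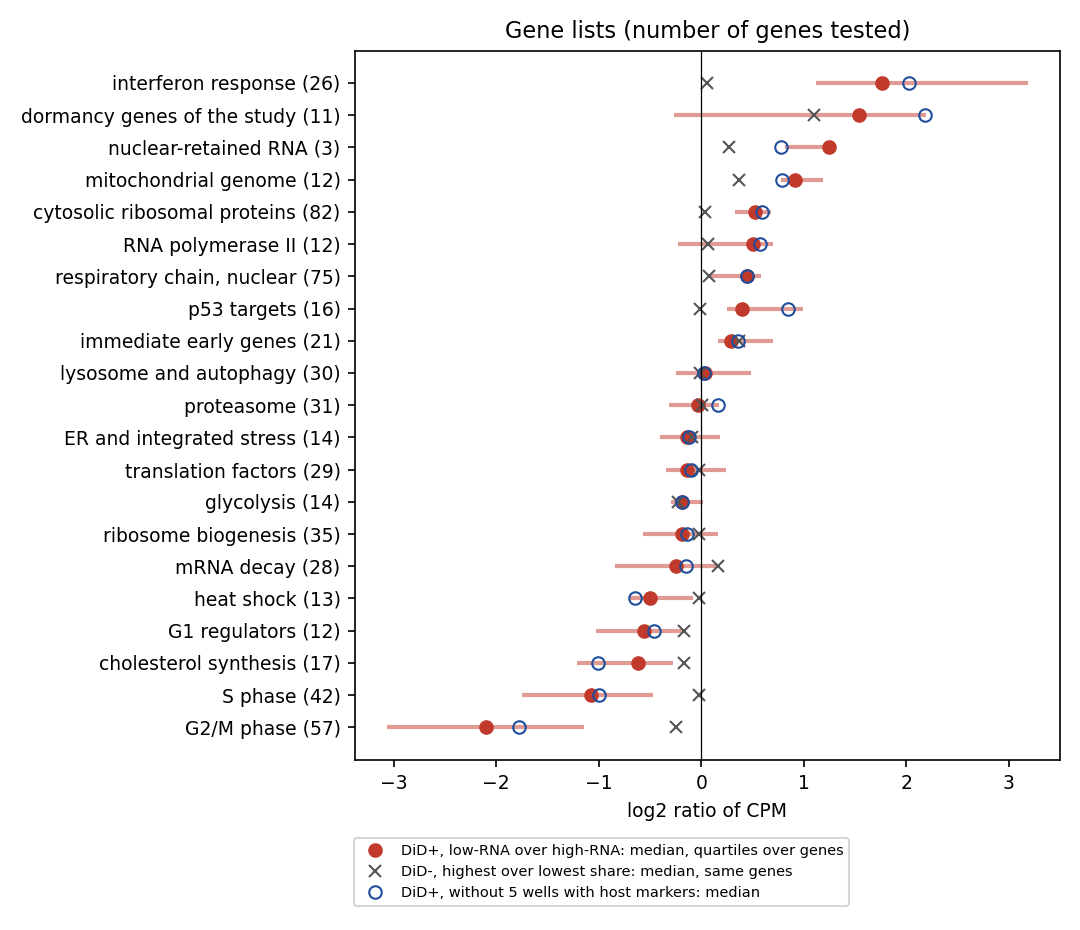
Median log2 ratio of each gene list (x axis, with the number of genes tested beside each name) for low-RNA over high-RNA DiD+ cells (filled points, bars from the lower to the upper quartile of genes), the same without the 5 wells with host markers (open points) and the DiD- split (crosses). G2/M (-2.10) and S phase (-1.07) genes are lowest and interferon genes (1.76) highest, while the DiD- medians of these 3 lists are -0.24, -0.02 and 0.05. No DiD- cell reached the spike-in share of a low-RNA cell.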

How the data were processed

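Single cells had been sorted into wells, amplified with a SMARTer v4 kit with ERCC spike-ins and sequenced. The authors aligned reads with STAR to GRCm38 (mm10) with spike-in and transgene sequences added, and deposited estimated counts from RSEM, of which 96.6% were whole. Versions are not given in the sources used here. The estimated counts were rounded. A second deposited table holds a BASiCS normalized signal, used only as an alternative, for 13951 genes.

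For each of the 60 cells, the spike-in share was spike-in counts over counts on all rows. The 10 DiD+ cells with the highest and the 10 with the lowest share formed the groups. Group sums were scaled to CPM over the 47729 mouse genes. The log2 ratio used a pseudocount of 1 CPM, and genes needed 10 CPM in either group. A ratio past 1 or -1 was called, without a test, since a group is 1 sample. Differences between the libraries of one group describe cells. Depth was 2276789 to 7794219 mouse counts per DiD+ cell, and exact 95% Poisson intervals and the floor of 3 counts per group cover counting error only.

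The members, lists and alternatives were chosen with earlier results of these data known. Named genes are the 12 highest and 12 lowest by the log2 ratio nearest 0 when each of the 20 cells was left out in turn, among genes with a symbol and counts in at least 6 cells of the higher group, together with list members at the extremes or with a stated role, genes the study measured and the transgenes. A few genes, one of them measured by the study, are not reported here. Promoters came from RefSeq (GRCm38.p6) and were matched by symbol. Windows that overlapped annotated exons were not shown. A well counted as holding host markers with at least 7 macrophage or 4 erythroid markers at 10 counts or more.

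Alternatives were other scalings (spike-in totals, edgeR 4.0.16 TMM factors, median-of-ratios factors, BASiCS), pseudocounts, minima, numbers of cells per side, cell blocks and left-out cells. The median over cells, and leaving out cell 68 with the 5 host-marker wells, were added after seeing the data. The pipeline was tested on simulated data. Python 3.11.15, numpy 2.4.6, pandas 2.3.3, scipy 1.17.1 and R 4.3.3 were used.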

Additional observations from a re-analysis of the deposited data

Results flagged for a closer look

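In 54 sets of 10 cells (each summary measure within low-RNA cells and within high-RNA cells), 3 had 1 cell far from the other 9 by Dixon's criterion, and chance alone flags about 1 in 20 such sets. Low-RNA cell 30, one of the 2 wells with erythroid markers, had the highest share of counts on its top 50 genes, 30.9575%, with the next low-RNA cell at 21.4%. Low-RNA cell 35 had the lowest summed level of endoplasmic reticulum and integrated stress genes, 2707.29 CPM, with the next at 4431 CPM. High-RNA cell 81 had the highest summed level of heat shock chaperones, 37752.7 CPM, with the next at 12021 CPM.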

How the results depend on the processing

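No paired analysis was possible because the labels give no number that ties a low-RNA to a high-RNA cell. Main counts were 924 higher and 1418 lower genes. Scaling to spike-in totals gave 78 and 7287, with G2/M at -3.67 and S phase at -2.67, a shift of all genes by -1.68 fixed by the choice of cells. Every list median above 0 but that of interferon genes (0.07) then lay below 0, such as dormancy genes (-0.27), nuclear-retained RNAs (-0.39), the mitochondrial genome (-0.76) and ribosomal proteins (-1.15), which says nothing of a single list. Dormancy genes were also at -0.29 in cells 17 to 46 alone. A pseudocount of 10 CPM gave 469 and 811 genes, a minimum of 1 CPM or of 1 count 1747 and 2502, and 16 against 16 cells 599 and 914. Higher genes numbered 1702 with 5 against 5 cells and 1480 in cells 63 to 92. The median over cells, added after seeing the data, gave 385 and 2567 genes and G2/M at -5.17. Except for construction (fewer or more genes or cells), the cause was not tested. Leaving out each cell in turn gave 845 to 1006 higher and 1364 to 1562 lower genes, G2/M medians of -2.31 to -1.79, S phase medians of -1.37 to -0.76 and differences in detected genes of -1786 to -1441. With 16 against 16 cells that difference was -877.5. Without the 5 wells with host markers it was -1848, with 1022 higher and 1608 lower genes. All 408 values of the 24 named genes under other settings kept their direction. These genes were chosen in the same cells for ratios far from 0, so a kept direction was favoured by the choice and is no separate check. Depth is 1 limit on absence: a group's 3-count floor was 0.0657 CPM in low-RNA and 0.0638 CPM in high-RNA cells. A transcript missed at capture also leaves no count, and this floor does not cover it. Low-RNA sums had 25.4 mouse counts per spike-in count and high-RNA sums 81.6. The fold limits for genes without counts therefore describe counts and not transcripts in the cells.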
